A study of Mus musculus with 3 samples.

Results

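The 8 genes described here encode the lipases of the fat cell and the proteins that switch them on or hold them back. They were taken by symbol from a table of 39179 genes: the triglyceride lipase gene Pnpla2, the diglyceride lipase gene Lipe, the monoglyceride lipase gene Mgll, the lipase co-activator gene Abhd5, the lipase inhibitor gene G0s2, the receptor genes Adora1 and Adrb3, and the phosphodiesterase gene Pde3b. The question was how much of each messenger RNA came down with Flag-tagged FTO, a demethylase that acts on adenosines in RNA, relative to a nonspecific IgG. There were 2 libraries from an anti-Flag M2 immunoprecipitation (Flag-IP 1 and Flag-IP 2) and 1 library from an IgG immunoprecipitation (IgG-IP). Mice of both groups were C57BL/6, carried the Flag-FTO transgene, were 16 weeks old and had been fasted overnight, and the tissue was white fat. The sources used here give neither the promoter behind the transgene nor the number of animals per library, and the Flag-IP pair may therefore differ for technical reasons alone. No input library was used here, so a count is RNA recovered on the beads and not a tissue level, and fewer cells of a type and less RNA per cell cannot be told apart.

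Lipolysis breaks stored triglyceride into fatty acids and glycerol, and fasting is its physiological trigger in white fat. Noradrenaline acts on the beta-3 adrenergic receptor, cyclic AMP rises, and protein kinase A phosphorylates the droplet coat and hormone-sensitive lipase. Abhd5 then activates the triglyceride lipase, while G0s2 inhibits it. Adenosine, acting through the A1 receptor, lowers cyclic AMP, and insulin lowers it through Pde3b.

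FTO is best known for acting on N6-methyladenosine, which is found in a short consensus of which GGACT is a common form. To show what that consensus looks like in these transcripts, the copy closest to the stop codon is given below for the 3 genes that passed the test and for Adrb3, which had the highest density of copies. In transcript bases past the stop codon, these copies start at 333 in Mgll, 642 in Adora1, 87 in Adrb3 and 545 in Pde3b. The motif was searched as GGACT on the sense strand of 1 GENCODE M21 transcript a gene, with each match in capitals and 12 bases on either side, in DNA letters.
Mgll, 3' UTR, chr6:88826097-88826125, plus strand, GRCm38: tgtggggttcggGGACTctctggcagtcc
Adora1, 3' UTR, chr1:134202293-134202321, minus strand, GRCm38: attcacagcctgGGACTcccagtgggcca
Adrb3, 3' UTR, chr8:27226454-27226482, minus strand, GRCm38: tccgtttttgcaGGACTtctggggatttt
Pde3b, 3' UTR, chr7:114536781-114536809, plus strand, GRCm38: ttcatcgaggaaGGACTgaggacctttgt
The motif was present in all 8 transcripts and in 92.1% of the 14920 tested protein-coding transcripts, which differ in length, and a match does not show methylation or binding.

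The libraries held 98227791 and 95824218 counts for Flag-IP and 74176962 for IgG-IP. In each, 97.0% to 97.6% of counts fell on 28 genes that reached 100000 counts somewhere, and the median tested gene had 24 to 26 counts. Sampling noise alone did not account for the distance between the Flag-IP libraries (chi-square divided by its degrees of freedom, 36.5 over 19188 genes). The 28 highly counted genes can dominate that chi-square. It therefore does not give the spread of a typical gene or of the lipolysis genes. All 12 white adipocyte markers had counts, but few of them. Of the 11 tested, 2 were higher, beside 5.58% of all tested genes, and 9 did not pass. The median log2 fold change of the 11 was 1.06. Adipoq, which encodes adiponectin, had 18 and 14 counts in Flag-IP and 3 in IgG-IP. It reached the low-count filter of the test only in Flag-IP, so its place among the 11 already favoured a positive value. The adipocyte regulator gene Pparg had 68 and 117 in Flag-IP and 148 in IgG-IP. Summed normalized counts of that list, which holds Lipe, were 531 and 425 in Flag-IP and 403 in IgG-IP, and those of 7 endothelial markers were 526 and 585 in Flag-IP and 518 in IgG-IP. Skeletal muscle markers summed to 390 and 322 in Flag-IP and 194 in IgG-IP. Of these, 3 of 7 tested genes were higher (Ckm, Tnnt3 and Ryr1), beside 5.58% of all tested genes. Ckm (23 and 19 counts in Flag-IP, 4 in IgG-IP) reached the low-count filter of the test only through the Flag-IP libraries. GC content, taken up below, was 53.0% to 58.0% in the transcripts of the 3. Fibroblast and progenitor markers summed to 439 and 349 in Flag-IP and 326 in IgG-IP. Macrophage and blood markers went the other way. Macrophage markers summed to 298 and 227 in Flag-IP and 333 in IgG-IP, and blood markers to 201 and 229 against 365. No fibroblast or macrophage marker passed. Of 2 tested blood markers 1 was lower, beside 5.77% of all tested genes. The part of these cell types in the results below was not tested. Normalized counts are counts scaled by TMM to the mean effective size of the 3 libraries.

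Of the 8 genes, 7 had enough counts to be tested. In Flag-IP, Mgll and Adora1 were higher and Pde3b was lower. The test was edgeR's quasi-likelihood test with Benjamini-Hochberg adjustment over all 17587 genes tested and a threshold of 0.05. None of the 3 calls held once a trend on GC content was removed. The background was 5.58% of tested genes higher and 5.77% lower. Both Flag-IP libraries lay above the IgG-IP library for 4 of the 7 genes and below it for 2, and 40.5% and 39.0% of all tested genes lay so. Adrb3, 1 of those 4, reached the low-count filter only in the Flag-IP libraries, and without it the tally was 3 above and 2 below among 6. The median log2 fold change of the 7 genes was 1.02, and that of all tested genes was 0.03. The median of the genes was 0.70 without Adrb3, 0.67 without Flag-IP 1, 0.51 with scaling to total counts and 0.42 with a GC trend removed. It was 0.11 over the 2 genes with a mean count of 50 or more. The test has 1 residual degree of freedom, from the Flag-IP pair, and assumes that the lone IgG-IP library varied as those did. Over all genes it called 981 higher and 1015 lower, and with scaling to total counts, which shifted log2 fold changes by a median of -0.52, the split was 342 to 3008 (1.94% and 17.1%).

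**Figure D1:**
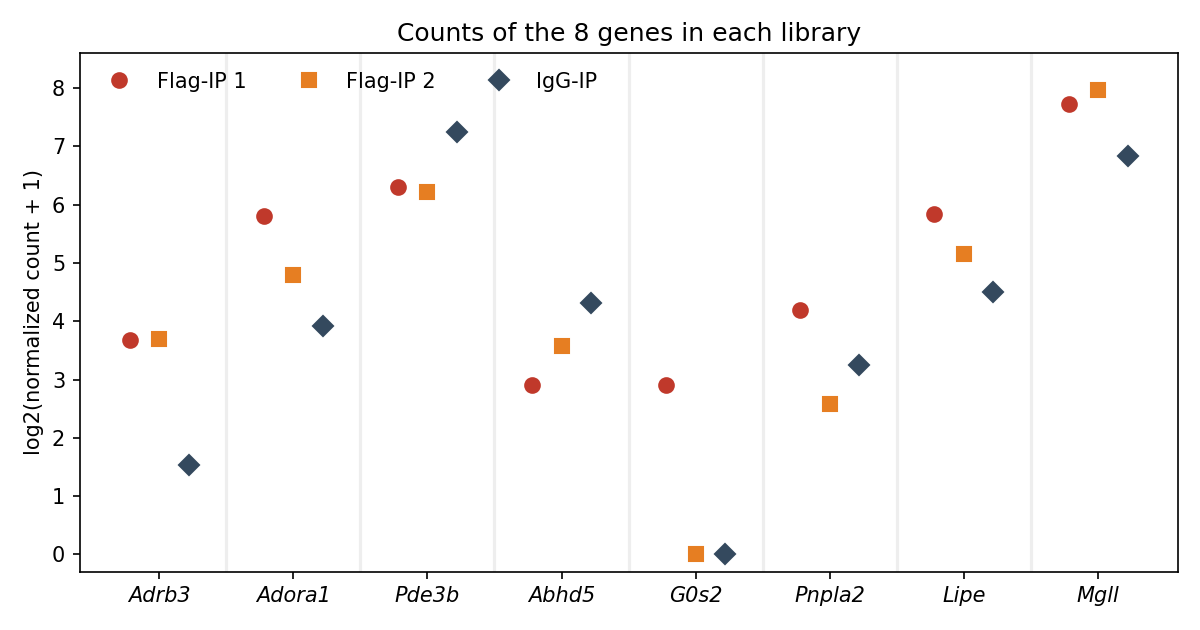
Counts of the 8 genes in each library, as log2(normalized count + 1) on the vertical axis, with 1 point for each of Flag-IP 1, Flag-IP 2 and IgG-IP from left to right. The IgG-IP point lies under both Flag-IP points for Adrb3, Adora1, Lipe and Mgll, above both for Pde3b and Abhd5, and between them for Pnpla2.

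Among the genes that carry hormone signals, Adora1 rose. This gene encodes the inhibitory A1 receptor through which adenosine restrains lipolysis (chromosome 1, 134199223 to 134235431, minus strand, GRCm38). It had 51 and 27 counts in Flag-IP and 15 in IgG-IP, or 54.9 and 26.7 normalized counts against 14.1. Both Flag-IP libraries were above the IgG-IP library, and they were also 2.05-fold apart from each other. On the log2 scale the fold change was 1.51 ± 0.51 (SE; edgeR adjusted p = 0.0334). It was 0.91 without Flag-IP 1 and 1.95 without Flag-IP 2, both without a test. Exons of Adora1 share 1162 of their 5785 bases with Mybph on the opposite strand, a muscle protein gene with 11 and 10 counts in Flag-IP and 2 in IgG-IP, and the strand setting of the counting is not known.

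Adrb3 encodes the beta-3 adrenergic receptor, the main start signal for lipolysis in mouse fat (chromosome 8, 27225776 to 27250616, minus strand). It had 11 and 12 counts in Flag-IP and 2 in IgG-IP. The Flag-IP libraries were nearly equal and both above the IgG-IP library. The ratio of the normalized counts was 6.30, with an exact 95% interval of 1.56 to 55.1 that covers counting error only. The log2 fold change of 2.58 ± 1.37 (SE) did not pass (edgeR adjusted p = 0.228). The gene reached the low-count filter only through the Flag-IP libraries, so its place among the tested genes already favoured a positive value. An antisense gene that shares 839 exonic bases with it was not analysed here.

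Pde3b fell. It encodes the membrane-bound phosphodiesterase by which insulin lowers cyclic AMP in fat cells (chromosome 7, 114415281 to 114539251, plus strand). It had 72 and 74 counts in Flag-IP and 160 in IgG-IP, or 77.5 and 73.3 normalized counts against 151. The Flag-IP libraries were almost the same, and neither came near the IgG-IP level. The fold was 0.501, with an SE of 0.27 on the log2 scale (edgeR adjusted p = 0.00622). The log2 fold change was -1.04 without Flag-IP 1 and -0.96 without Flag-IP 2. No GENCODE gene overlaps Pde3b.

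Of the 3 lipase genes, Mgll was higher, Lipe had a positive fold change that did not pass, and the sign of Pnpla2 depended on the Flag-IP library. Mgll encodes monoglyceride lipase, which takes the last fatty acid off the glycerol and also degrades the endocannabinoid 2-arachidonoylglycerol (chromosome 6, 88724412 to 88828360, plus strand). It was the most highly counted of the 8 genes in the Flag-IP libraries, with 196 and 251 counts there and 120 in IgG-IP. In normalized counts these were 211 and 249 against 113, so that both Flag-IP libraries were above the IgG-IP library by more than they differed from each other. The log2 fold change was 1.02 ± 0.25 (SE), a fold of 2.03, with an edgeR adjusted p = 0.00146. It was 1.14 without Flag-IP 1 and 0.90 without Flag-IP 2. The antisense gene Gm26588, which shares 167 exonic bases with Mgll, had 3 and 6 counts in Flag-IP and 8 in IgG-IP.

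Lipe encodes hormone-sensitive lipase, the protein kinase A target that cleaves diglyceride (chromosome 7, 25379527 to 25398710, minus strand). It had 52 and 35 counts in Flag-IP and 23 in IgG-IP. The normalized counts were 56.0 and 34.7 in Flag-IP and 21.7 in IgG-IP, with both Flag-IP libraries above the IgG-IP library. The log2 fold change of 1.06 ± 0.45 (SE) was as large as that of Mgll, but the gene did not pass (edgeR adjusted p = 0.113). An antisense gene that shares 918 exonic bases with Lipe had no counts in any library.

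Pnpla2 encodes adipose triglyceride lipase, which takes the first fatty acid off triglyceride (chromosome 7, 141455198 to 141460743, plus strand). It had 16 and 5 counts in Flag-IP and 9 in IgG-IP, so the Flag-IP libraries lay on either side of the IgG-IP library. The log2 fold change was 0.37 ± 0.95 (SE; edgeR adjusted p = 0.856), and at this depth no difference could be detected. Without Flag-IP 1 it was -0.76, and without Flag-IP 2 it was 1.01.

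The regulators that bind the triglyceride lipase were weakly counted. Abhd5, the co-activator also known as CGI-58 (chromosome 9, 122351608 to 122381524, plus strand), had 6 and 11 counts in Flag-IP and 20 in IgG-IP. Both Flag-IP libraries were below the IgG-IP library, with a log2 fold change of -1.10 ± 0.76 (SE) that did not pass (edgeR adjusted p = 0.389). It shares 950 exonic bases with the antisense gene A730085K08Rik, which had 31 and 22 counts in Flag-IP and 12 in IgG-IP. The pair thus had opposite signs. Without strand their reads cannot be told apart in the shared stretch, which is 950 of the 5956 exonic bases of Abhd5.

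G0s2, whose protein inhibits adipose triglyceride lipase (chromosome 1, 193272161 to 193273217, minus strand), had 6 and 0 counts in Flag-IP and 0 in IgG-IP. It was too low to be tested. A count of 0 allows up to 3 counts, and the Flag-IP mean of 3.23 normalized counts is near that floor, so no fold change is given. The gene lies within the span of Lamb3 on the opposite strand, a laminin gene with 55 and 67 counts in Flag-IP and 36 in IgG-IP, and shares no exonic base with it.

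Per kilobase of exon, Mgll led in every library, with 41.6 and 49.0 normalized counts per kb in Flag-IP and 22.3 in IgG-IP. Its mean Flag-IP level per kb exceeded that of 92.9% of tested genes. Pde3b was next in the IgG-IP library at 16.5 per kb, but had only 8.51 and 8.04 per kb in Flag-IP. There it was close to Lipe, with 9.51 and 5.89 per kb in Flag-IP and 3.68 in IgG-IP, and to Adora1, with 9.49 and 4.62 in Flag-IP and 2.44 in IgG-IP. Pde3b stood below Lipe and Adora1 in Flag-IP 1 and above them in Flag-IP 2, so its place there does not exceed the spread. Lipe was above Adora1 in every library, though barely so in Flag-IP 1. Adrb3 had 3.51 and 3.52 per kb in Flag-IP and 0.558 in IgG-IP, while Abhd5 had 1.08 and 1.83 in Flag-IP and 3.16 in IgG-IP. Pnpla2, at 5.71 and 1.64 per kb in Flag-IP and 2.81 in IgG-IP, had no stable place either.

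GC content differed between the genes with positive and negative fold changes. The 5 tested genes with positive values had transcripts of 54.2% to 58.5% GC, while Pde3b had 44.0% and Abhd5 45.7%. Within the 5, Pnpla2, highest in GC, had the smallest log2 fold change (0.37 ± 0.95, SE), and Adora1, lowest in GC, had 1.51 ± 0.51 (SE). With SEs of this size the order of the 5 cannot show whether the fold change followed GC. Across the 9084 protein-coding genes that averaged 20 counts or more, which share the same 3 libraries, the fold change rose with GC (Spearman's rho 0.63). In the tenth of those genes by GC that holds Mgll, 17.1% were higher, and in the tenth that holds Adora1, 11.0% were. In the tenth that holds Pde3b, 14.3% were lower.

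With a trend on GC removed from each library, none of the 7 genes passed by edgeR. Mgll then had a log2 fold change of 0.55 ± 0.24 (SE; edgeR adjusted p = 0.236), Adora1 1.11 ± 0.51 (adjusted p = 0.269) and Pde3b -0.59 ± 0.27 (adjusted p = 0.267). Lipe stood at 0.42, Adrb3 at 2.11 and Abhd5 at -0.83, and Pnpla2 turned to -0.31. Under this correction 2.4% of all tested genes were higher and 2.0% lower. With scaling to total counts Mgll (0.51, adjusted p = 0.22) and Adora1 (0.98, adjusted p = 0.213) did not pass either, and Pde3b did. Of the 7 genes only Mgll was given an adjusted p by DESeq2, 0.0821, while 6.88% of the genes with one were higher there and 7.62% lower.

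**Figure D2:**
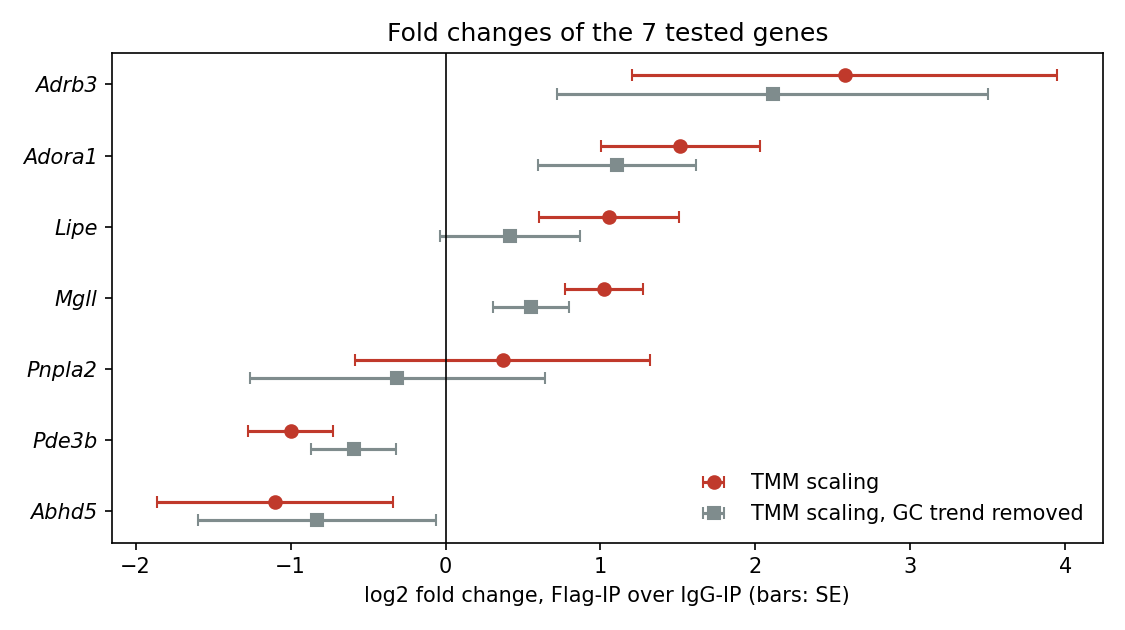
Log2 fold change of Flag-IP over IgG-IP on the horizontal axis for the 7 tested genes, with SE bars, before (red circles) and after (grey squares) removal of a GC trend. The values of all 7 genes are closer to 0 or, for Pnpla2, on the other side of it after removal, with Mgll at 0.55 after removal and 1.02 before it, and Adora1 at 1.11 after and 1.51 before.

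**Figure D3:**
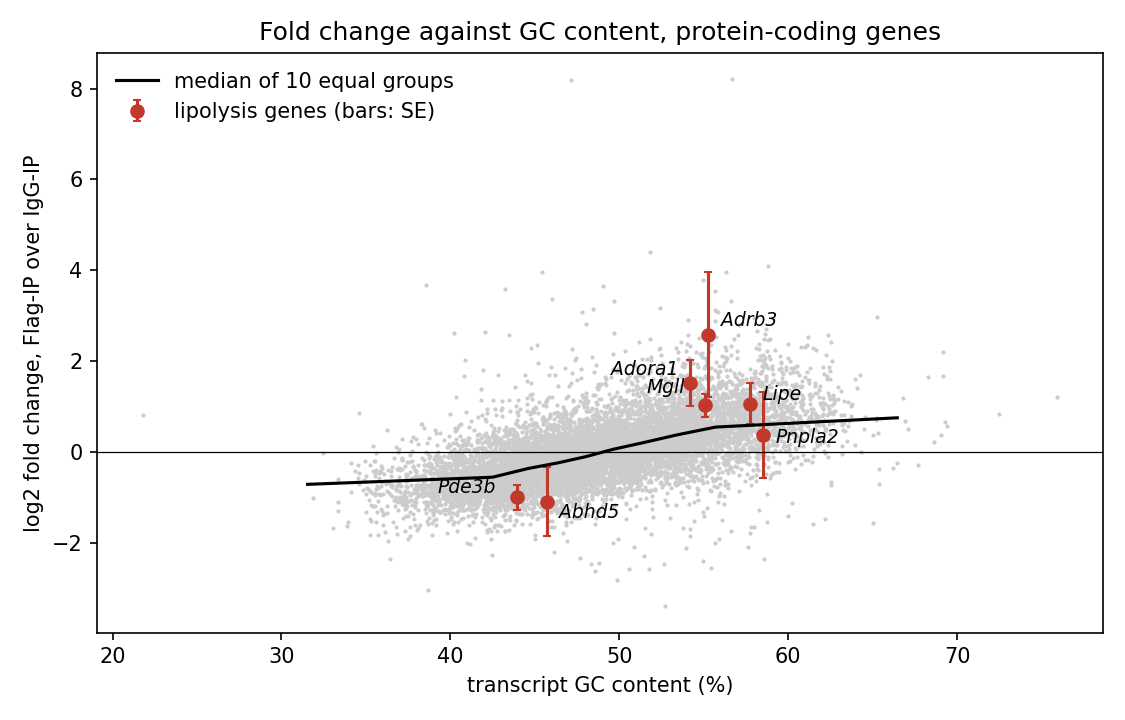
Log2 fold change of Flag-IP over IgG-IP against transcript GC content in percent for 9084 protein-coding genes (grey), with the median of 10 equal groups as a line and the 7 tested lipolysis genes in red with SE bars. The line runs from -0.72 in the lowest GC group to 0.75 in the highest, with Pde3b and Abhd5 on its left side and the other 5 genes on its right.

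Neither the density of GGACT nor GC content put the tested genes in the order of their fold changes. The SEs of those fold changes reached 1.37 (Adrb3), so that order cannot show whether either of them matters. GGACT density was highest in Adrb3 (2.50 per kb) and in G0s2 (2.30 per kb), which was not tested. Adrb3 also had the largest fold change, but it did not pass. It reached the low-count filter only through the Flag-IP libraries, which favoured a positive value. The density was lowest in Pde3b (0.456 per kb), with a median of 1.04 per kb over tested protein-coding transcripts. Abhd5, with a negative fold change, and Mgll, with a positive one, had nearly the same density at 1.58 and 1.55 per kb. Lipe had 1.11, Adora1 1.01 and Pnpla2 0.556 per kb. The 3' UTR holds all 5 copies in Adora1, 4 of the 6 in Mgll, 3 of the 5 in Abhd5 and 2 of the 7 in Adrb3. It holds 1 of the 3 in Pde3b, 1 of the 2 in G0s2 and none in Lipe or Pnpla2. Across the 9084 genes Spearman's rho between density and log2 fold change was 0.16, and density itself moved with GC (rho 0.27).

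Other genes of the pathway were counted over 8 lists arranged by role, none of which holds a gene of the authors' deposited lipid list. Of their 91 tested genes 7 were higher and 11 lower by edgeR, beside backgrounds of 5.58% and 5.77%, with a median log2 fold change of -0.04. With the GC trend removed 2 were higher and 6 lower. The same backgrounds stand beside the counts of each list below.

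Of 8 tested receptor genes besides Adrb3 and Adora1, 1 was lower and 7 did not pass. The lower one was the growth hormone receptor gene Ghr, with 406 and 624 counts in Flag-IP and 1093 in IgG-IP. The thyrotropin receptor gene Tshr had 138 and 151 counts in Flag-IP and 176 in IgG-IP. The other adenosine receptor genes did not pass: Adora2a had 13 and 20 counts in Flag-IP and 12 in IgG-IP, Adora2b 10 and 12 against 8, and Adora3 35 and 18 against 30. Adk, the kinase that clears adenosine, was the 1 lower gene among 8 of the adenosine list, with 205 and 227 counts in Flag-IP and 405 in IgG-IP. Entpd1, which acts on extracellular nucleotides, had 98 and 116 counts in Flag-IP and 110 in IgG-IP.

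Between receptor and lipase, the cyclic AMP genes went both ways. Of 13 G protein and adenylyl cyclase genes 3 were lower, and 1, Adcy7, was higher with 68 and 83 counts in Flag-IP and 39 in IgG-IP. Adcy6 had the largest difference, with 212 and 230 counts in Flag-IP and 1430 in IgG-IP (log2 fold change -2.56 ± 0.21, SE). Gnas, which encodes the stimulatory G protein subunit, had 133 and 121 counts in Flag-IP and 304 in IgG-IP, Adcy8 had 118 and 142 against 229, and Adcy2, which did not pass, 222 and 266 against 291. Gnas shares exons with genes on the opposite strand, Adcy8 overlaps another outside its exons, and Adcy6 shares 605 exonic bases with an antisense gene that was not analysed here. Of 8 protein kinase A and G genes, the regulatory subunit gene Prkar1b was higher (118 and 149 counts in Flag-IP, 74 in IgG-IP) and Prkg1 was lower (635 and 672 in Flag-IP, 1182 in IgG-IP). The catalytic subunit gene Prkaca had 24 and 33 counts in Flag-IP and 19 in IgG-IP and did not pass.

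Among 14 other phosphodiesterase genes 3 were lower, 1 was higher and 10 did not pass. Pde3a, the closest relative of Pde3b, was lower with 119 and 165 counts in Flag-IP and 271 in IgG-IP (log2 fold change -0.81 ± 0.23, SE), and its transcript has 43.0% GC. It shares 741 exonic bases with an antisense gene that was not analysed here. Pde4b (256 and 328 in Flag-IP, 522 in IgG-IP) and Pde4d (834 and 906 in Flag-IP, 1509 in IgG-IP) were lower too. Pde2a was higher, with 95 and 126 counts in Flag-IP and 66 in IgG-IP, and shares 150 exonic bases with the more highly counted Arap1 and 3955 of its 4139 with a second annotated entry of its own symbol, not analysed here. Pde1c had 439 and 419 counts in Flag-IP and 518 in IgG-IP. Of 10 insulin signalling genes upstream of Pde3b 2 were lower, among them the kinase gene Pik3ca (27 and 41 counts in Flag-IP, 76 in IgG-IP). Neither Pik3r1 (292 and 244 in Flag-IP, 336 in IgG-IP) nor Pik3cb (73 and 90 in Flag-IP, 113 in IgG-IP) passed.

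On the droplet, 3 of 10 tested genes were higher, beside 5.58% of all tested genes, and 7 did not pass. The GC content of the 3 transcripts was 56.9% (Plin1), 55.9% (Plin4) and 49.7% (Aqp7). In the tenth of protein-coding genes by GC that holds Plin1 and Plin4, 17.1% were higher, and in that of Aqp7 2.97% were. Plin1, the coat protein that holds Abhd5 until protein kinase A releases it, had 34 and 59 counts in Flag-IP and 12 in IgG-IP (log2 fold change 2.06 ± 0.51, SE). Plin4 had 30 and 34 counts in Flag-IP and 4 in IgG-IP, beside a neighbour, Hdgfl2, with 59 and 35 in Flag-IP and 19 in IgG-IP. Like Adrb3, Plin4 reached the low-count filter only through the Flag-IP libraries, so its place among the tested genes already favoured a positive value. Aqp7, the channel by which glycerol leaves the cell, had 1932 and 1631 counts in Flag-IP and 196 in IgG-IP. Cidec, a droplet fusion protein, had 117 and 93 counts in Flag-IP and 152 in IgG-IP.

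Of 20 other lipases and relatives, 1 was higher and 19 did not pass. Dagla, which makes the 2-arachidonoylglycerol that Mgll degrades, had 72 and 51 counts in Flag-IP and 28 in IgG-IP (log2 fold change 1.27 ± 0.40, SE). Pnpla3, a close relative of Pnpla2, had 34 and 28 counts in Flag-IP and 25 in IgG-IP. Abhd6, another monoglyceride lipase, had 50 and 69 counts in Flag-IP and 41 in IgG-IP. Lipoprotein lipase (Lpl), with 3108 and 1996 counts in Flag-IP and 2666 in IgG-IP, had libraries of Flag-IP on either side of IgG-IP, and so did hepatic lipase (Lipc, 77 and 126 in Flag-IP, 94 in IgG-IP).

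**Figure D4:**
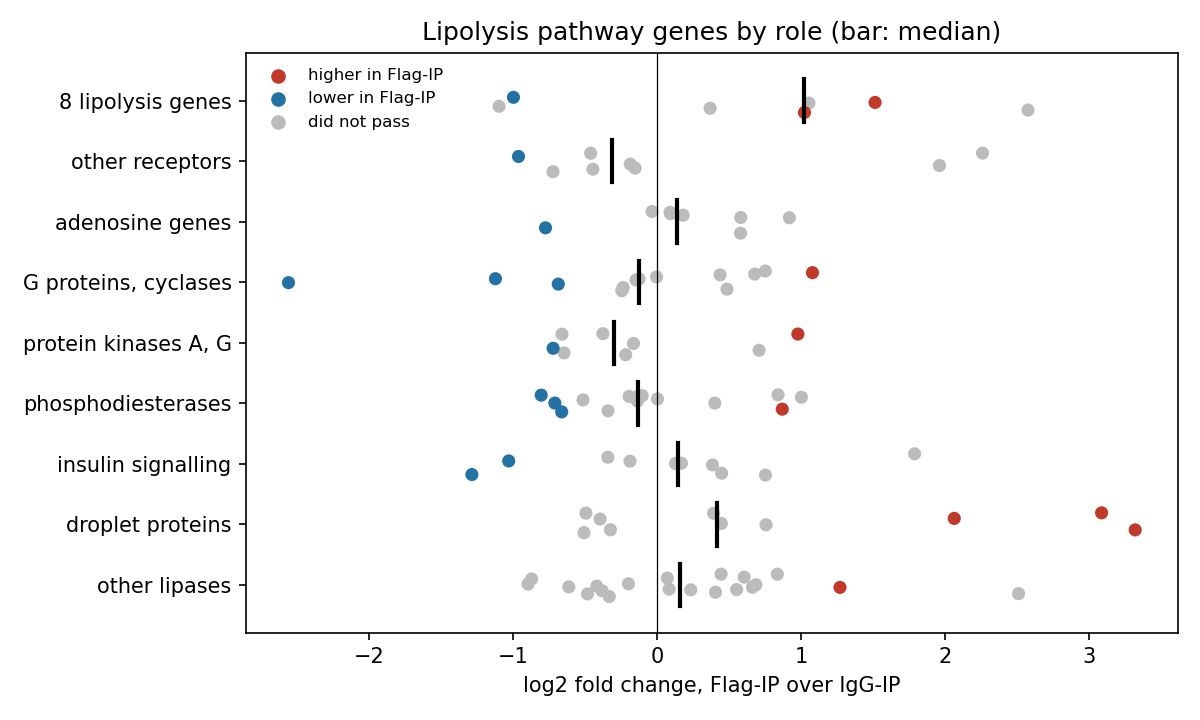
Log2 fold change of Flag-IP over IgG-IP on the horizontal axis for each tested gene of 9 groups of lipolysis genes, with red points higher, blue points lower and grey points not past the edgeR threshold, and a bar at the median of each group. The 7 tested of the 8 lipolysis genes have a median of 1.02, and the phosphodiesterases one of -0.13 with 3 lower genes.

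The genes most like each of the 3 called genes were sought by the distance between log2 CPM values centred over the 3 libraries, among genes within 2-fold of the same mean count. With 3 libraries many genes lie close together. Dysf (336 and 430 counts in Flag-IP, 210 in IgG-IP), Prkar1b and Daam2 were nearest to Mgll among 2077 candidates, and their transcripts have 55.2% to 55.9% GC against 55.1% for Mgll. Bop1 (30 and 15 in Flag-IP, 8 in IgG-IP), Slc22a18 and Dvl1 were nearest to Adora1 among 7837, with 57.1% to 60.6% GC against 54.2% for Adora1. Gpr126 (77 and 78 in Flag-IP, 170 in IgG-IP), Zfp804b and Pkhd1l1 were nearest to Pde3b among 3717, with 43.3% to 44.0% GC against 44.0% for Pde3b.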

How the data were processed

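RNA recovered by immunoprecipitation was sequenced in 3 libraries. The authors deposited raw counts per Ensembl gene. CASAVA 1.7, Bowtie 0.12.2 and build mm8 are named in the submitters' processing notes; the sources used here do not give the counting program, its annotation or whether it used strand. The authors' deposited lipid list holds a ratio of Flag to IgG counts and was used only to see whether it names these genes.

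Each column carries the sample number of its library's label. Positions, transcripts and GC come from GENCODE M21 (GRCm38), matched by Ensembl identifier for 37607 genes, with 1 transcript a gene chosen by APPRIS rank and length; no mm8 position is given. Genes were kept by filterByExpr with a minimum count of 10. Genes were tested by quasi-likelihood in edgeR 4.0.16 under R 4.3.3 with TMM scaling. An SE is the log2 fold change divided by the square root of F. Simulated counts, used to try the code, had the fitted dispersion in all 3 libraries and no GC trend. They cannot show how the lone IgG-IP library or GC affects the calls. The fit gave infinite prior degrees of freedom for every gene, so SE and p rest on a spread shared between genes. The interval on a ratio of counts is exact (Clopper-Pearson on the split of the counts) and covers counting error only.

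The alternatives were scaling by RLE, by upper quartile or by total counts, no filter, a filter at a mean of 50 counts, prior counts of 0.5 and 2, DESeq2 1.42.0, removal of a lowess trend on GC (span 0.3, fitted over genes of all RNA classes that averaged 20 counts or more), and leaving out each Flag-IP library. The 8 genes, the lists and the tests were chosen with earlier results of these data known. Named genes are the 8, those called in each list at a mean count of 20 or more, the 2 most highly counted of each list, and the 3 most alike. Adora2a, Adora2b, Adora3, Prkaca, Pnpla3, Abhd6, Adipoq, Pparg and overlapping genes were named outside that rule, after their values were seen. A gene that the rule takes is not reported here.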

Additional observations from a re-analysis of the deposited data

How the results depend on the processing

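Among the 7 tested genes, 2 higher and 1 lower were called under RLE and upper-quartile scaling and both other prior counts. The number higher was 0 with total counts, 1 with no filter (Adora1 lost), 1 with a mean count of 50 or more, which leaves Mgll and Pde3b, 0 with the GC trend removed and 0 with DESeq2, where 6 of the 7 had no adjusted p. The number lower was 0 with the GC trend removed and with DESeq2. At an unadjusted p under 0.05 there were 2 genes with total counts and 3 with the GC trend removed by edgeR, and 2 with DESeq2. The share of all tested genes at that level was not computed, so these numbers have no background to be set against. The median log2 fold change was 0.51 with total counts, 0.11 with a mean of at least 50 counts, 0.42 with the GC trend removed, and 0.67 to 1.01 leaving out a Flag-IP library. Pnpla2 reversed to -0.17 with total counts and to -0.31 with the GC trend removed. Over all genes, calls were 342 higher and 3008 lower with total counts, 422 and 351 with the GC trend removed and 131 and 145 with DESeq2. In the pathway lists they were 3 and 23 with total counts, 2 and 6 with the GC trend removed and 1 and 3 with DESeq2, and 4 were higher with no filter. Beyond the fewer genes given an adjusted p by DESeq2 and the fewer genes tested with the stricter filter, the cause was not tested. No paired analysis was possible because the groups share only 1 replicate number. Counts of Pnpla2, Abhd5, G0s2 and Adrb3, at 20 or fewer in every library, limit what could be seen.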
